A study of Homo sapiens with 3 samples.

Results

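Gene expression was compared between Hep-G2 cells with a partial knockdown of FTO, made with a short hairpin RNA (shRNA) labelled sh#2, and Hep-G2 cells carrying a control shRNA. Hep-G2 is an established human line from a hepatoma that keeps many traits of the hepatocyte. Genes were chosen by their level alone: a mean of 1 FPKM or more across the deposited libraries was required, which gave 11069 of the 21572 genes listed. FPKM divides a gene's sequenced fragments by its transcript length and by the library total, so it can be set side by side between genes. The comparison uses 2 of the 3 libraries of the series, and the third, from a line with the shRNA labelled sh#7, which the series design calls the more efficient knockdown, enters the filter and is given beside the values. The hairpins are labelled SHC002 in the control, TRCN0000255402 in sh#2 and TRCN0000246247 in sh#7, and all 3 lines were at passage 21, grown in DMEM with fetal bovine serum and antibiotics. Each line gave 1 library of 1 culture, and the sources used here do not say whether a line was a pool of cells or 1 clone. No difference below therefore has a replicate check, no test was made, and an effect of FTO cannot be told apart from an effect of the line or of the hairpin.

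FTO encodes a dioxygenase of the AlkB family that removes the methyl group from N6-methyladenosine (m6A), a common modification of messenger RNA, and it was first known for its link to body weight. The m6A mark is set by a writer complex around METTL3 and METTL14, removed by FTO or ALKBH5, and read by YTH and IGF2BP proteins, which alter the decay, translation and splicing of marked RNA. In the liver, FTO has been studied for its part in glucose output and lipid storage. Hepatocytes secrete most plasma proteins, make and release glucose, carry lipids, and neutralise foreign compounds, and those functions order the account below.

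The targeted gene followed the label. FTO was at 9.02 FPKM in control cells, 5.29 in sh#2 and 2.55 in sh#7. In sh#2 this was 58.6% of the control (exact 95% interval 51.3 to 66.9), from an estimated 607 fragments in the control and 362 in sh#2. Such intervals here rest on an estimated depth of 47.6 M (mega) fragments in the control and 48.5 M in sh#2. They also rest on a length per gene taken as the median of all its annotated transcripts, so fragment numbers are rough. They cover counting error only, not the spread between cultures. On the scale used throughout, log2(FPKM + 1) of sh#2 minus the control, the difference of FTO was -0.67. The other 21 compared members of the m6A list lay between -0.09 and 0.41, and none reached 2-fold. METTL3, the catalytic writer, was at 40.2 FPKM in control cells and 41.6 in sh#2, and ALKBH5, the other demethylase, was at 36.4 and 34.1 FPKM. The largest positive values belonged to the reader gene IGF2BP1, at 25.7 and 34.6 FPKM, METTL5, a methyltransferase of ribosomal RNA, at 58.5 and 76.6 FPKM, and METTL14, at 10.1 and 13.5 FPKM. The median of the list was 0.18, against 0.10 for all compared genes.

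Few genes lay far from the control. At least 2-fold on the log2(FPKM + 1) scale, 56 genes were higher in sh#2 (0.506% of those compared) and 80 were lower (0.723%), together 1.23%. Past 2-fold refers to this scale throughout. The added 1 shrinks ratios, most at low levels, so some genes whose FPKM differ by more than 2-fold are not counted. The middle of the distribution was narrow, with the 5th percentile at -0.41 and the 95th at 0.49. The median difference was 0.10, and 32.8% of genes lay below 0, so the deposited scale places sh#2 slightly above the control for most genes. Median-of-ratios scaling, which brings that median to 0.000536, gave 47 higher and 105 lower genes, so that higher genes made up 30.9% of those past 2-fold, against 41.2% on the deposited scale and 32.9% after upper-quartile scaling. Lower genes were the more abundant group: in sum they held 3.46% of all FPKM in the control and 1.34% in sh#2, whereas the higher genes held 0.137% and 0.356%. Among the 945 genes averaging 100 FPKM or more, 1.16% were lower and 0.423% higher by 2-fold, and among the 2905 genes between 1 and 5 FPKM the shares were 1.07% and 1.10%. The 2-fold line ran between TBX2, at 1.00 on the higher side, and the hepatocyte factor gene CEBPA, which stayed just under it, also at 1.00 after rounding. On the lower side it ran between MATN3, at -1.0009, and F10, at -0.99. At the filter, STS was just inside with a mean of 1.00 FPKM and LOC282997 just outside with 0.999 FPKM. Of the 136 genes past 2-fold, 126 had a transcript length that allowed a fragment estimate. For all 126 the counting interval excluded equality with the control. The genes were chosen by the same values, so this result was largely fixed beforehand and is no check of the calls. Gene lists are counted over their compared members, of which no list had more than 43, so a share of 1.23% corresponds to less than 1 gene in each. Of the 136 genes, 36 belonged to a list. Median-of-ratios scaling moved 35 of 39 list medians by 0.1 or more, all of them down, so list medians are to be read against the 0.10 of all genes.

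**Figure D1:**
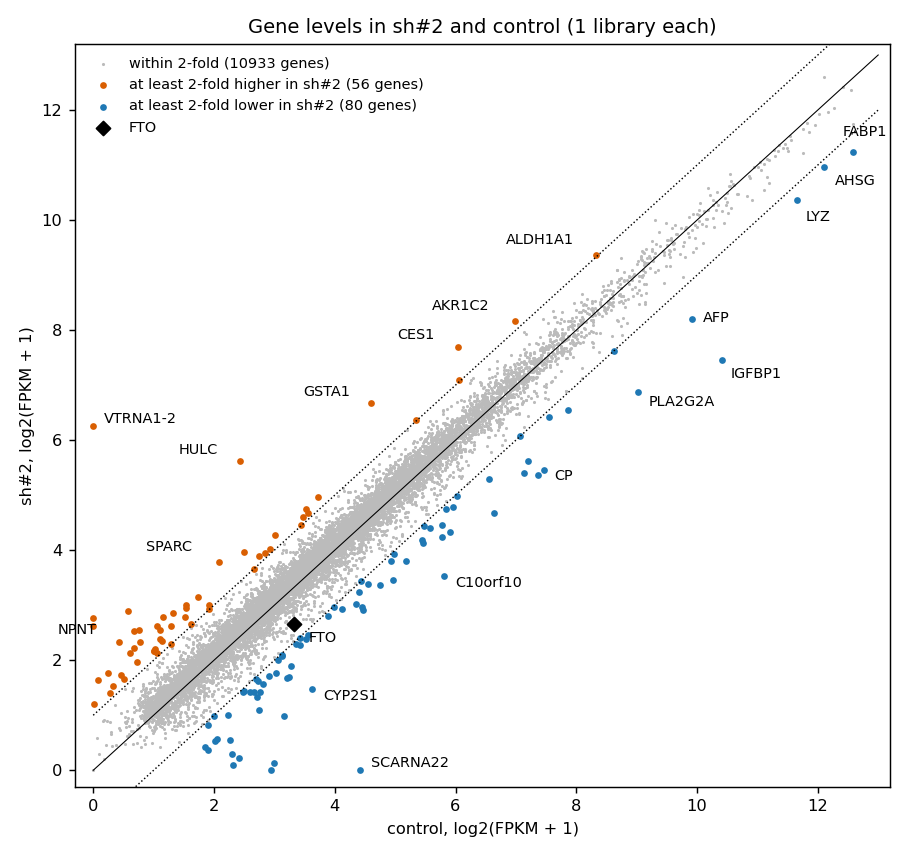
Levels of the 11069 compared genes as log2(FPKM + 1) in the control (horizontal) and in sh#2 (vertical), 1 library each; the solid line marks equal levels and the dotted lines mark 2-fold. The 80 lower genes reach into the most abundant ones, such as FABP1 and LYZ, while 24 of the 56 higher genes average 5 FPKM or more.

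On the log2(FPKM + 1) scale, IGFBP1 lay furthest below the control among genes with an estimated fragment number. IGFBP1 is a secreted binding protein of insulin-like growth factors, and in liver it is a standard target of FOXO1 that insulin represses. It was at 1361 FPKM in control cells, 175 in sh#2 and 57.0 in sh#7, so sh#2 held 12.9% of the control level (12.6 to 13.1). IGFBP3, the main carrier of these factors in plasma and the neighbour of IGFBP1 on chromosome 7, was at 2.73, 0.767 and 0.464 FPKM. The mean of IGFBP3 was 1.32 FPKM, and it passed the filter only through its control level. IGFBP1 and IGFBP3 were 2 of the 9 compared members of the insulin-like growth factor list, whose median was -0.30. None was past 2-fold higher. The growth factor gene IGF2 itself was at 2138 FPKM in control cells and 1914 in sh#2, and the receptor genes IGF1R and INSR both lay at -0.30. IGFBP7, which was not in the list and was looked up after the values were seen, was at 1.49, 6.22 and 5.82 FPKM.

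Among 15 compared genes of FOXO signalling and glucose output, 1 was past 2-fold lower and the median was -0.10. That gene was G6PC, the glucose-6-phosphatase that lets hepatocytes release glucose, at 2.62 FPKM in control cells, 0.348 in sh#2 and 0.0742 in sh#7, or 13.3% of the control in sh#2 (7.12 to 23.7). Its mean was 1.01 FPKM, and it passed the filter only through its control level, so being compared and being called lower are tied. At a minimum mean of 5 FPKM G6PC is not compared, and the count is then 0. TXNIP, a glucose-induced regulator of thioredoxin, was at 37.5 and 20.8 FPKM in the control and sh#2, and the coactivator gene PPARGC1A at 5.60 and 3.15 FPKM. The factor genes FOXO1, FOXO3 and FOXO4 lay between -0.21 and -0.06. SESN1, a stress gene that FOXO factors and p53 activate, was on the other side at 10.7 and 16.4 FPKM.

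Genes for secreted plasma proteins were spread widely, and the lower ones included some of the most abundant transcripts of these cells. Of 13 compared plasma carrier genes, 4 were past 2-fold lower and 2 past 2-fold higher, with a median of -0.23. CP, the copper-carrying ferroxidase ceruloplasmin, was at 175 FPKM in control cells, 43.1 in sh#2 and 14.9 in sh#7, or 24.6% of the control in sh#2 (23.0 to 26.4). AFP, the fetal plasma protein alpha-fetoprotein that liver tumours often express, was at 961, 294 and 15.7 FPKM, or 30.6% (29.8 to 31.5). TTR, the carrier of thyroxine and of retinol-binding protein, was at 61.1, 26.6 and 3.43 FPKM, and AHSG, the mineral-binding glycoprotein fetuin-A, at 4399, 2005 and 1353 FPKM. ALB, albumin, the adult counterpart of AFP, was at 5468 FPKM in control cells and 5501 in sh#2. HPX, which binds free haem, was at 5.72 FPKM in control cells, 13.8 in sh#2 and 3.98 in sh#7, with the control and sh#7 close together. GC, the vitamin D binding protein, was at 0.0543, 2.13 and 3.80 FPKM, and the control value stands for about 3 estimated fragments, which gives a ratio of 39.2 with an interval of 14.3 to 209.

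Apolipoprotein genes gave 3 lower and 0 higher of 15 compared, with a median of -0.38. APOM, which carries sphingosine-1-phosphate on high-density lipoprotein, was at 140.2 FPKM in control cells, 41.5 in sh#2 and 8.70 in sh#7, or 29.6% in sh#2 (27.8 to 31.4). APOL1, a trypanolytic component of the same particles, was at 5.69, 1.13 and 2.13 FPKM, and APOF at 7.77, 3.21 and 2.55 FPKM. APOA2 was at 6168 FPKM in control cells and 3424 in sh#2. The main structural proteins of lipoproteins stood near equality, with APOA1 at 2616 and 2629 FPKM and APOB at 337 and 354 FPKM. With a minimum of 5 FPKM the list median was -0.11, and of the 3 lower genes APOM alone was then compared.

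Genes of secreted antimicrobial proteins had a list median of -0.57, with 3 of 7 compared genes lower and 0 higher. PLA2G2A, a secreted phospholipase that attacks bacterial membranes, was at 517 FPKM in control cells, 117 in sh#2 and 56.9 in sh#7, or 22.6% of the control in sh#2 (21.8 to 23.4). BPIFB2, of the family of bactericidal permeability-increasing proteins, was at 98.5, 24.5 and 2.08 FPKM. LYZ, lysozyme, was at 3216, 1321 and 297 FPKM. HAMP, the iron hormone hepcidin, was the exception, at 102 FPKM in control cells, 171 in sh#2 and 257 in sh#7.

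Other secreted groups held no gene past 2-fold in sh#2. Acute phase genes (11 compared) had a median of 0.05, which turns to -0.07 under median-of-ratios scaling, and the fibrinogen genes FGA, FGB and FGG lay at -0.24, 0.27 and 0.11. Their sh#7 levels were far from both other libraries, with FGA at 260 FPKM in control cells, 219 in sh#2 and 3.96 in sh#7. Coagulation genes (15 compared) had a median of -0.16 and complement genes (18 compared) one of -0.03. Within coagulation, F10, the factor that converts prothrombin, was at 73.0 and 36.2 FPKM. On the log2(FPKM + 1) scale F10 was just short of 2-fold lower, at -0.99, and it passed that line under both scalings. SERPIND1, heparin cofactor II, was at 184 and 106 FPKM. CPB2, an inhibitor of clot breakdown, went the other way at 7.93 and 16.2 FPKM, a difference of 0.95 on the same scale. The proteases that start the classical complement path, C1R and C1S, were at 6.72 and 15.7 FPKM in control cells and 12.04 and 25.4 FPKM in sh#2.

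**Figure D2:**
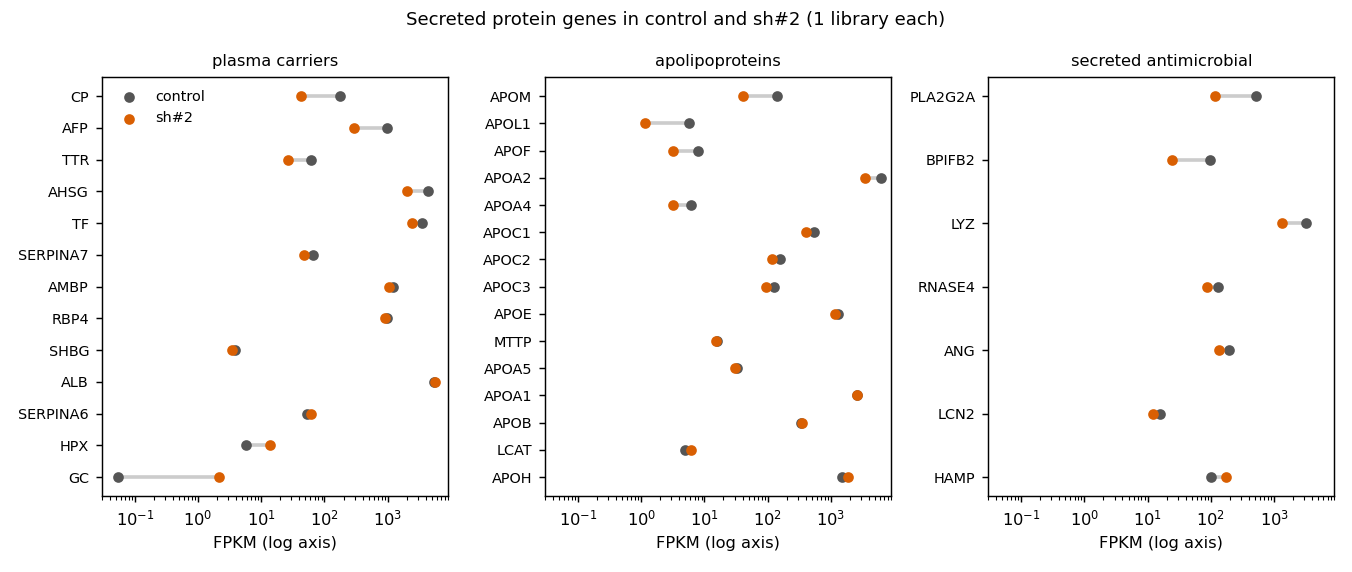
FPKM (log axis) of the compared plasma carrier, apolipoprotein and antimicrobial genes, with 1 point for the control library and 1 for sh#2, ordered by difference. CP, AFP, APOM, PLA2G2A and BPIFB2 stand well to the left in sh#2, ALB, APOA1 and APOB coincide, and HPX and GC stand to the right.

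Genes of glucose uptake and glycolysis were all a little lower in sh#2. Each of the 22 compared members lay below 0, from -0.94 to -0.08, with a median of -0.40, against 32.8% of all compared genes below 0 and a median of 0.10. None reached 2-fold on the deposited scale, and 1, SLC2A1, did so under either scaling. SLC2A1, the glucose transporter GLUT1, was at 228 FPKM in control cells, 118 in sh#2 and 83.4 in sh#7, or 52.0% of the control in sh#2 (49.3 to 54.8). HK2, the hexokinase typical of tumours, was at 55.8, 34.4 and 18.3 FPKM, and PDK1, which keeps pyruvate out of mitochondria, at 17.0, 10.3 and 6.25 FPKM. PGK1, which makes ATP in glycolysis, was at 565, 365 and 263 FPKM. LDHA, which turns pyruvate into lactate, was at 1400.4 FPKM in control cells and 984 in sh#2. GAPDH, often used as a reference gene, was among the least different at 3457 and 3244 FPKM.

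Targets of hypoxia-inducible factor (HIF) outside glycolysis lay lower still. Of 22 compared, 2 were past 2-fold lower and 0 higher, 19 lay below 0, and the median was -0.57. Both lists together held 44 genes, of which 43 lay below the median of all genes. LOX, which cross-links collagen, was at 42.7 FPKM in control cells, 17.1 in sh#2 and 13.7 in sh#7, or 40.1% in sh#2 (37.4 to 43.0). EGLN3, an oxygen sensor that marks HIF for decay and is itself induced by HIF, was at 5.66, 2.07 and 1.77 FPKM. The mitophagy receptor gene BNIP3 was at 273, 139 and 75.2 FPKM, NDRG1 at 139.9, 74.8 and 88.7 FPKM, and INSIG2, which holds back sterol synthesis, at 108, 59.2 and 49.3 FPKM. Under median-of-ratios scaling the count of lower genes was 4. Some targets stayed close to the control: VEGFA, the vessel growth factor, was at 80.4 FPKM in control cells and 75.8 in sh#2, DDIT4 at 136 and 138 FPKM, and EPO, erythropoietin, at 8.57 and 9.63 FPKM. The values of VEGFA, DDIT4 and EPO in sh#7 were 37.1, 109 and 1.99 FPKM.

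Because these genes share a known regulator, the promoters of some are shown. They are the 4 genes with the largest lower values, over both lists, among those whose RefSeq promoter held ACGTG, a form of the core to which HIF binds. All 4 are in the hypoxia list. Where a gene had several start sites, the site with the most matches in its window was taken. Each line gives the 250 bases before the start site, 5′ to 3′ on the gene's strand, in the RefSeq table on GRCh38.p14, with ACGTG or its complement CACGT in capitals. LOX lies at chr5:122078260-122078509 on the minus strand, BNIP3 at chr10:131981924-131982173 on the minus strand, INSIG2 at chr2:118088221-118088470 on the plus strand and MXI1 at chr10:110209981-110210230 on the plus strand.
LOX: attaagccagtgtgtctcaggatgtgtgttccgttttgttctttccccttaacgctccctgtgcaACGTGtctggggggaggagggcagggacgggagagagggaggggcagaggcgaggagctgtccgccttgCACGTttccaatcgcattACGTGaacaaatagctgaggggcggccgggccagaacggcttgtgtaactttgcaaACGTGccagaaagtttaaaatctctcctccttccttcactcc
BNIP3: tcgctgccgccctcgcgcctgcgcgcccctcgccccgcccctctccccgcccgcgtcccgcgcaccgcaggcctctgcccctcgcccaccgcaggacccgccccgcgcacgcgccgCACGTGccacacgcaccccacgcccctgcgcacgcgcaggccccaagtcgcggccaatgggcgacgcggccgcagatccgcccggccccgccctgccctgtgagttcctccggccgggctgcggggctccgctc
INSIG2: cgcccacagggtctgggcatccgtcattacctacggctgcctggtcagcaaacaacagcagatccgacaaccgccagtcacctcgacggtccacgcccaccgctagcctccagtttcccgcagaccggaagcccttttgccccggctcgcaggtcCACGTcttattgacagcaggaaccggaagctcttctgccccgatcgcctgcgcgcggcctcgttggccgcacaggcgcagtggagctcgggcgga
MXI1: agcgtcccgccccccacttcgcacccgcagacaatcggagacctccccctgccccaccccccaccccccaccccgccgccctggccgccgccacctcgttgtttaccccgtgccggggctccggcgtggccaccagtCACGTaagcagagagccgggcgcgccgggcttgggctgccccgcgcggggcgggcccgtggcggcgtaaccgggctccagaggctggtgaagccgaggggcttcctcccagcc
The LOX window held 4 matches, and that of BNIP3 held 2 that overlap in the palindrome CACGTG, which is also an E-box. INSIG2 and MXI1 held 1 each. Of the 24 promoters that matched 18 of the hypoxia genes, 66.7% held the motif on either strand, and of the 41 promoters that matched 20 of the glycolysis genes, 41.5% did. The share was 18.5% over all 35116 promoters of the table and 22.8% over those of compared genes matched by symbol. Genes with several start sites count more than once. A match describes letters in this window and is not a measured binding site. The hypoxia list was made of known HIF targets, so its share is tied to that choice and says nothing about sh#2. Whether HIF had a part in the lower values was not tested.

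**Figure D3:**
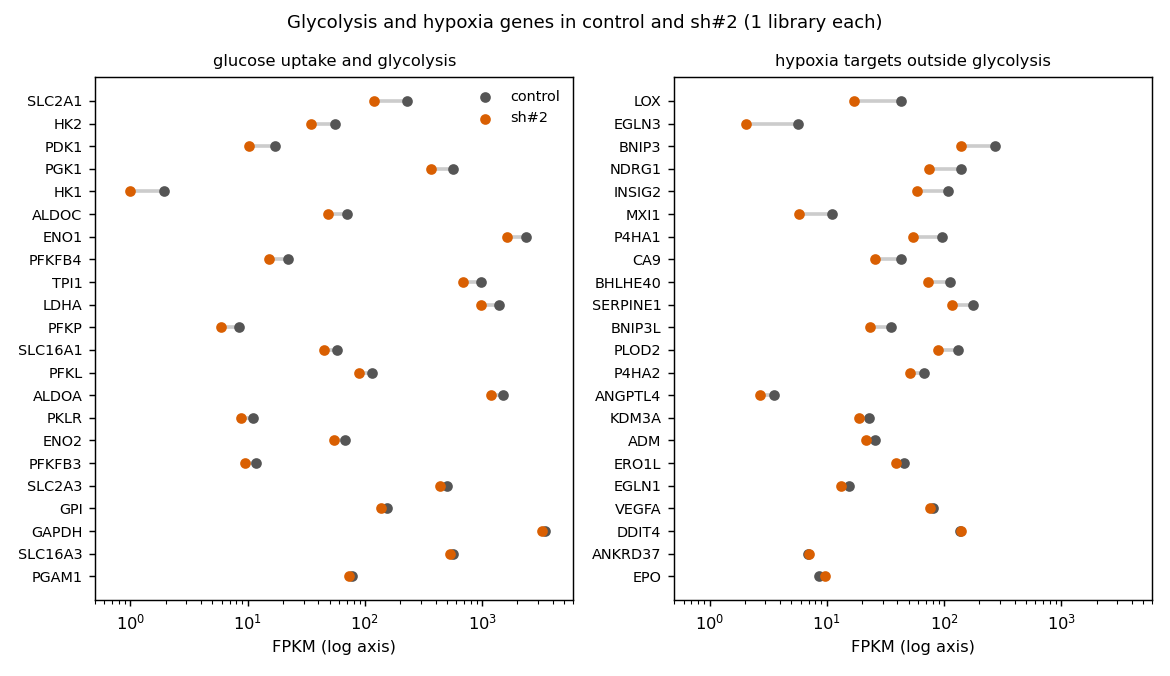
FPKM (log axis) of the 22 compared glycolysis genes and the 22 compared hypoxia targets, control and sh#2 library side by side and ordered by difference. Every glycolysis gene is lower in sh#2, SLC2A1 by the most, and only DDIT4, ANKRD37 and EPO of the hypoxia targets are not.

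Fatty acid genes went both ways, with 2 higher and 2 lower of 26 compared and a median of -0.15. FABP1, the main carrier of fatty acids in hepatocyte cytosol and the most abundant gene of the control among those past 2-fold, was at 6167 FPKM in control cells, 2415 in sh#2 and 208 in sh#7, or 39.2% in sh#2 (38.9 to 39.4). CPT1A, which admits fatty acids to mitochondria for oxidation, was at 6.54, 2.27 and 14.3 FPKM, lower in sh#2 and higher in sh#7 than in the control. The 2 higher genes were acyl-CoA synthetases: ACSL1, which activates long-chain fatty acids, was at 10.5, 25.9 and 26.5 FPKM, and ACSS1, which activates acetate in mitochondria, at 12.1, 30.2 and 38.4 FPKM. Their relatives ACSL3, ACSL4 and ACSL5 lay at -0.15, -0.55 and -0.31. The uptake receptor gene CD36 was at 1.13 FPKM in control cells and 2.92 in sh#2, a difference of 0.88 on the log2(FPKM + 1) scale.

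Lipid storage showed the same mixture, with no gene past 2-fold on the log2(FPKM + 1) scale. The median was 0.02 over 15 compared droplet and lipase genes, and -0.10 after median-of-ratios scaling. GPAM and DGAT2, which start and finish triglyceride synthesis, were at 9.48 and 28.96 FPKM in control cells and 17.4 and 51.5 FPKM in sh#2. PLIN2 and CIDEC, which coat lipid droplets, were at 331 and 2.47 FPKM in control cells and 193 and 0.8005 FPKM in sh#2. On the log2(FPKM + 1) scale CIDEC differed by -0.95, and it was past 2-fold lower under both scalings. PNPLA2, the first triglyceride lipase of the droplet, was at 30.1 and 18.0 FPKM. The 10 compared fatty acid synthesis genes had a median of 0.07, or -0.04 after median-of-ratios scaling, and 5 of them lay below the median of all genes. FASN and ACACA, with the highest differences, were at 103 and 10.1 FPKM in control cells and 148 and 15.2 FPKM in sh#2, and ELOVL6, with the lowest, was at 16.3 and 13.4 FPKM. Of 20 compared cholesterol genes, 16 lay above 0, as did 7436 of all 11069 compared genes. The median of the list was 0.14, or 0.023 after median-of-ratios scaling, and the largest value was that of mevalonate kinase, MVK, at 16.8 and 32.9 FPKM.

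Genes for the handling of foreign compounds and aldehydes lay past 2-fold on both sides of the control. GSTA1, the main alpha-class glutathione transferase of liver, was at 23.4 FPKM in control cells, 101 in sh#2 and 103 in sh#7, or 432% of the control in sh#2 (395 to 473). GSTA2 was at 1.24, 5.86 and 15.6 FPKM, or 472% (361 to 631). They were the 2 genes past 2-fold, both higher, of 13 compared glutathione transferases, whose median was 0.19. The other alpha-class gene compared, GSTA4, was at 21.0 and 26.5 FPKM. GSTA1 and GSTA2 are near-identical neighbours on chromosome 6, so how reads were divided between them is uncertain. Their promoters are printed to show how alike they are, from the same RefSeq table, with the bases that differ in capitals; GSTA1 lies at chr6:52803817-52804066 and GSTA2 at chr6:52763476-52763725, both on the minus strand.
GSTA1: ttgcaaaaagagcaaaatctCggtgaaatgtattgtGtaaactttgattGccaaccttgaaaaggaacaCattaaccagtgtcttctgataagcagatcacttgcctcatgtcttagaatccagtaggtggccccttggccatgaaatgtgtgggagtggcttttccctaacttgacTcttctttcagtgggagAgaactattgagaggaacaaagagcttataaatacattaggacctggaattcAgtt
GSTA2: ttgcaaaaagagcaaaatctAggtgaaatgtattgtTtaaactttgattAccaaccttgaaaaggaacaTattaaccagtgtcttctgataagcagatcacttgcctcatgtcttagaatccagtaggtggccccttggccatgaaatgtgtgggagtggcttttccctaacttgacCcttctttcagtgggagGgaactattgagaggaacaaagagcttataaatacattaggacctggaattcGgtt
The windows shared 243 of 250 bases (97.2%), and neither held ACGTG.

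Higher enzymes of this kind were also found in other families. AKR1C2, an aldo-keto reductase of steroids, was at 126 FPKM in control cells, 286 in sh#2 and 602 in sh#7, or 228% in sh#2 (217 to 238), and it was the 1 gene past 2-fold of 24 compared NRF2 targets, whose median was 0.21. Its near copies AKR1C1 and AKR1C3 were at 247 and 361 FPKM and at 103 and 109 FPKM in the control and sh#2, and reads may be shared among them. The classic NRF2 target NQO1 was at 195 and 191 FPKM in the same libraries. Of 13 compared aldehyde dehydrogenases 2 were past 2-fold higher and 0 lower. ALDH1A1, which makes retinoic acid, was at 319.6, 658 and 1560 FPKM, and ALDH8A1, of tryptophan breakdown, at 0.593, 4.78 and 2.60 FPKM. ALDH1A1 is just under 2-fold after either scaling.

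Among 23 compared cytochrome P450, glucuronosyltransferase and esterase genes, 1 was higher and 1 lower. CES1, the carboxylesterase that activates many drugs, was at 65.1 FPKM in control cells, 207 in sh#2 and 277 in sh#7, or 318% in sh#2 (299 to 339). CYP2S1, a P450 mostly known outside the liver, was at 11.4, 1.78 and 4.77 FPKM, or 15.7% (10.7 to 21.9). AGXT, the peroxisomal enzyme that clears glyoxylate, was at 4.66, 14.7 and 6.43 FPKM, or 315% (275 to 362), and FMO5, a flavin monooxygenase outside the lists, at 20.8, 6.82 and 8.51 FPKM.

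**Figure D4:**
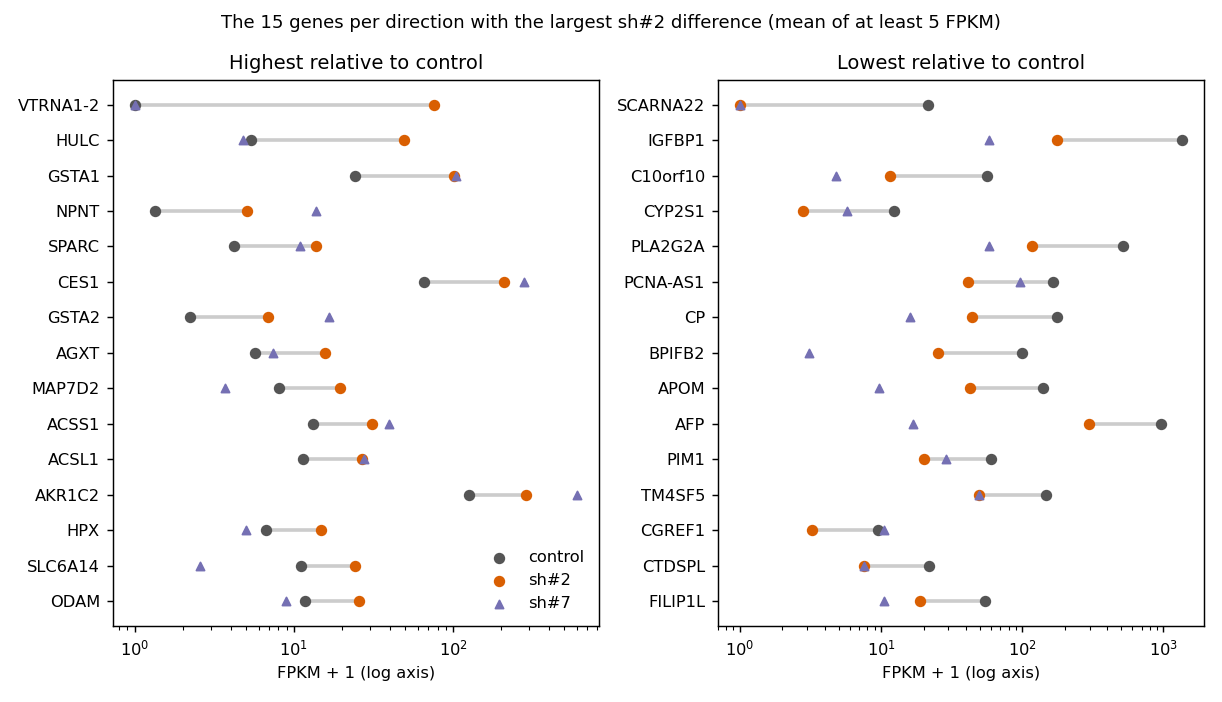
The 15 genes per direction with the largest difference of sh#2 from the control among those averaging 5 FPKM or more, as FPKM + 1 on a log axis in the control, sh#2 and sh#7 libraries. GSTA1, ACSL1, TM4SF5 and CTDSPL have nearly the same level in sh#2 and sh#7, while HULC, HPX, ODAM and CGREF1 lie within 2-fold of the control in sh#7 and MAP7D2 and SLC6A14 lie on its other side.

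Some of the largest differences belonged to non-coding RNAs, with little known of the fragments behind them. HULC, a transcript without protein product that liver tumours often carry, was at 4.39 FPKM in control cells, 48.0 in sh#2 and 3.79 in sh#7. It was the 1 gene past 2-fold of 14 compared long non-coding RNAs; MALAT1 was at 11.4 and 11.9 FPKM and NEAT1 at 37.8 and 29.4 FPKM in the control and sh#2. VTRNA1-2, a vault RNA, was listed at 0 in the control, 75.2 FPKM in sh#2 and 0 in sh#7, and SCARNA22, a guide RNA of the Cajal body, at 20.5 FPKM in the control and 0 in sh#2 and sh#7. For these 3 RNAs either no transcript length was matched or the length was too short for the fragment estimate. The number of fragments behind them is therefore not known, and no fold is given. PCNA-AS1, antisense to PCNA, was at 164 FPKM in control cells and 40.4 in sh#2 while PCNA was at 198 and 302 FPKM. The sources used here do not say whether counting used strand, so the reads of this pair cannot be told apart.

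Surface, matrix and signalling genes also held members past 2-fold. Of 26 compared matrix, integrin and cadherin genes, 3 were higher and 1 lower, with a median of -0.15. NPNT, an integrin ligand of basement membranes, was at 0.349 FPKM in control cells, 4.05 in sh#2 and 12.7 in sh#7, with an interval on the sh#2 level of 725% to 1960% of the control. SPARC, a collagen-binding matrix protein, was at 3.22, 12.8 and 9.87 FPKM, and FSCN1, an actin-bundling protein, at 65.6, 136 and 294 FPKM. FSCN1 is just under 2-fold after either scaling, which leaves 2 higher genes in the list. CDH2, N-cadherin, was at 9.69, 4.31 and 26.3 FPKM. DUSP6, the phosphatase that limits ERK signalling, was the 1 gene past 2-fold of 22 compared immediate early and ERK feedback genes, at 54.0, 20.9 and 7.90 FPKM. The kinase gene PIM1, a target of cytokine signalling, was at 59.0, 19.2 and 27.9 FPKM. The interferon list had 1 lower gene of 21, IFITM2, which restricts virus entry, at 93.4, 38.4 and 54.3 FPKM; the median of that list was 0.21. Among amino acid transporters, 1 of 21 was past 2-fold, SLC6A14, at 10.1 FPKM in control cells, 23.2 in sh#2 and 1.57 in sh#7. The glutamine transporter gene SLC38A2, at 226 and 117 FPKM, and the arginine transporter gene SLC7A2, at 32.5 and 16.9 FPKM, were just short of 2-fold lower and passed it after median-of-ratios scaling.

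The remaining genes furthest from the control in sh#2 were of mixed function. C10orf10, also called DEPP1, a FOXO-induced gene outside the lists, was at 55.3 FPKM in control cells, 10.6 in sh#2 and 3.82 in sh#7, or 19.1% (16.9 to 21.5). TM4SF5, a tetraspanin-like protein of liver tumours, was at 145, 48.4 and 48.7 FPKM, and CTDSPL, a small phosphatase, at 21.0, 6.56 and 6.53 FPKM. FILIP1L was at 53.7, 18.0 and 9.56 FPKM. CGREF1 was at 8.51, 2.24 and 9.46 FPKM and ODAM at 10.7, 24.7 and 7.88 FPKM, so that in both sh#7 lay closer to the control than to sh#2. In all, 23 of the 136 genes past 2-fold had an sh#7 level within 0.5 of the control. The knockdown lines share the control library, so their differences from it are not independent.

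Lists of growth, stress and lineage had small values and no gene past 2-fold. DNA replication and E2F targets (43 compared) had a median of 0.24 and 40 members above 0, with PCNA, the replication clamp, at 153% of the control (149 to 156) and the helicase gene MCM4 at 31.0 and 47.8 FPKM. After median-of-ratios scaling the replication median was 0.12, against 0.000536 for all genes. p53 targets (24 compared) had a median of 0.31, with FDXR, a mitochondrial reductase, at 46.5 and 80.8 FPKM and the growth inhibitor gene CDKN1A at 43.8 and 57.9 FPKM. ATF4 targets (21 compared) also had a median of 0.31, with the stress gene NUPR1 at 30.5 and 57.2 FPKM and ASNS, asparagine synthetase, at 9.61 and 15.2 FPKM. The RNA interference machinery (14 compared), which processes hairpins, had a median of 0.26. Mitosis genes (25 compared), Wnt targets (16) and metallothioneins (7) had medians of 0.14, 0.17 and 0.17, which were 0.026, 0.057 and 0.055 after median-of-ratios scaling. Circadian clock genes (17 compared) had a median of 0.19, which was -0.12 at a minimum mean of 5 FPKM. Endoplasmic reticulum chaperones (19 compared) lay at -0.09, with HSP90B1 at 1249 and 936 FPKM.

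Hepatocyte transcription factor genes (21 compared) had a median of 0.16. CEBPA, a factor of the mature hepatocyte, was at 35.5 FPKM in control cells, 71.9 in sh#2 and 121 in sh#7. FOXA1 was at 25.7, 42.2 and 42.1 FPKM and NR1H4, the bile acid receptor FXR, at 23.7, 43.2 and 38.0 FPKM. NR0B2, the repressor SHP that FXR normally induces, was at 31.4, 17.7 and 11.4 FPKM. HNF4A, a central hepatocyte factor, was at 93.1, 97.5 and 81.3 FPKM.

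**Figure D5:**
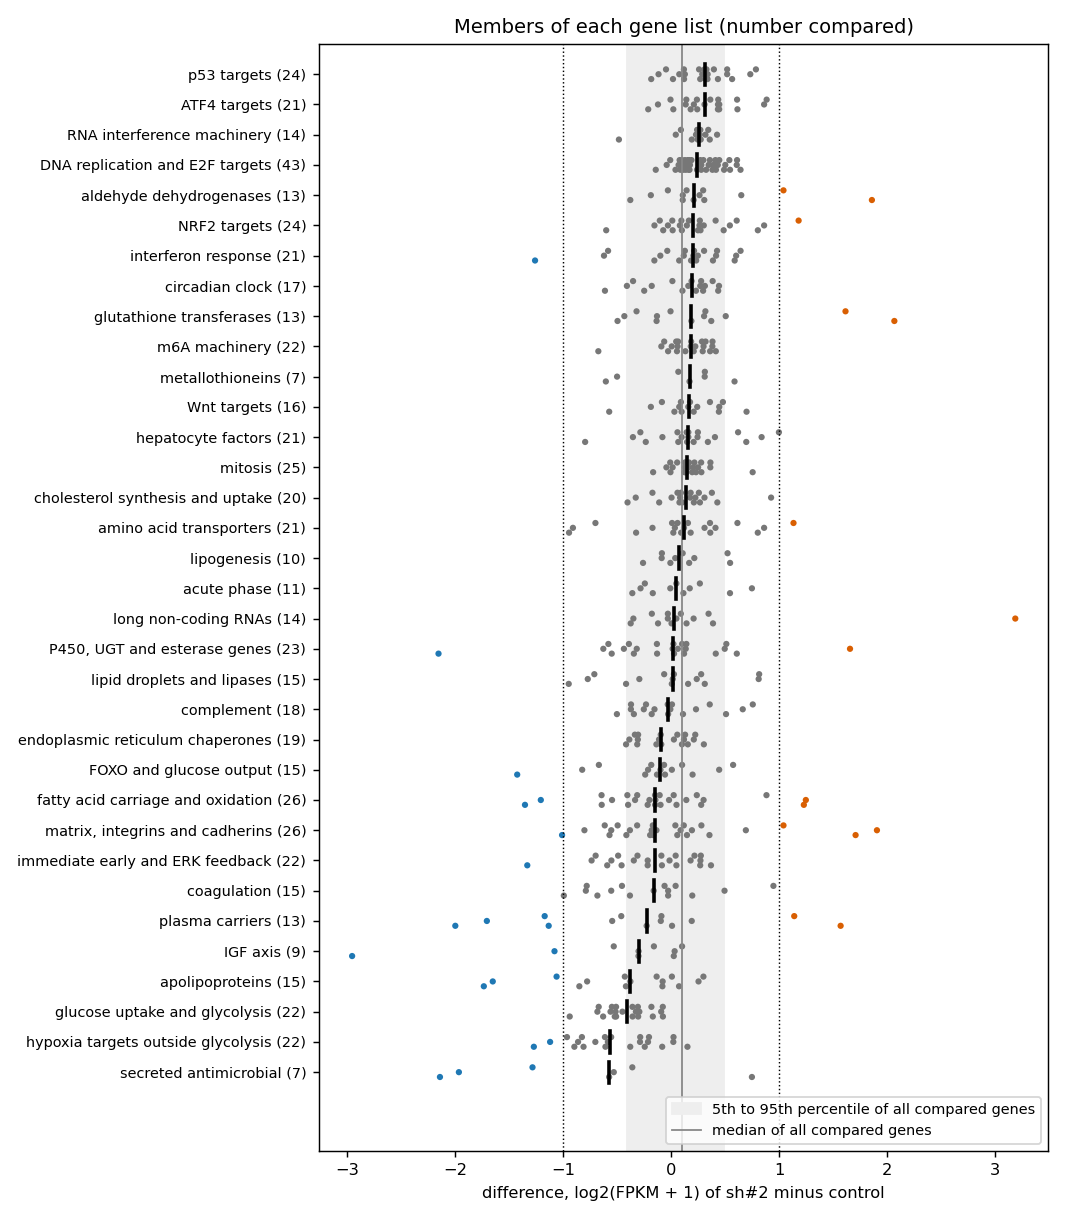
Difference of sh#2 from the control, log2(FPKM + 1), for each compared member of the functional gene lists; points past 2-fold (dotted lines) are coloured, short bars are list medians, and the grey band spans the 5th to 95th percentile of all compared genes. Of the 44 glycolysis and hypoxia genes 43 lie left of the grey median line, as do 9 of 9 genes of the IGF axis and 13 of 15 apolipoprotein genes, and 6 of 13 plasma carrier genes lie past 2-fold.

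Markers of the labelled cell type and of others were read in the same libraries. All 9 hepatocyte markers were compared and summed to 14745 FPKM in control cells, 13354 in sh#2 and 7017 in sh#7. No endothelial marker passed the filter, and their 5 genes summed to 0.0852, 0.204 and 0.0621 FPKM. Of 7 fibroblast and stellate markers 2 were compared, COL1A2, COL3A1, DCN and LUM were listed at 0 in all 3 libraries, and the list summed to 43.9, 35.4 and 52.7 FPKM. PTPRC, CD3E and HBB, defining markers of blood cells, were listed at 0 in all 3, and the blood list summed to 3258, 1354 and 322 FPKM, nearly all of it LYZ. Of 5 bile duct cell markers 3 were compared, and the list summed to 364, 472 and 595 FPKM. KRT19, a keratin of bile duct cells and liver tumours, was at 143.5, 243 and 324 FPKM. EPCAM was at 143, 159 and 211 FPKM, and SOX9 went the other way at 77.3, 69.5 and 59.1 FPKM. CFTR of the same list was listed at 0 in all 3. The kidney and neural list summed to 128, 114 and 87.3 FPKM, nearly all of it TUBB3. In bulk RNA, fewer cells that express a gene and less RNA of it per cell cannot be told apart.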

How the data were processed

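RNA of 3 Hep-G2 lines was sequenced, 1 library each. The authors deposited 1 table of FPKM values per gene. The submitters' processing notes name the build hg19 and the tools Cufflinks 2.2.1, HTSeq and STAR 2.4.0j, with no order of steps. FPKM is relative to the total, so abundant genes can shift the rest. Dates had replaced 26 symbols, which were not named.

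Differences are log2(FPKM + 1) of sh#2 minus control, which understates low genes. The filter was a mean of 1 FPKM over 3 libraries, and 2-fold was the threshold. FPKM values are not counts and groups held 1 library, so no model was fitted. Depth came from the steps of low FPKM values and GENCODE 29 transcript lengths, a newer annotation than hg19. For fragment numbers, the length of a gene was the median over all its GENCODE 29 transcripts, short ones included, less 225 nt. Where that median differs from the length behind the deposited FPKM, fragment numbers and interval widths are off. Intervals are exact Clopper-Pearson at 95%.

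Named genes were FTO, the 15 largest differences per direction at a mean of at least 5 FPKM, list members past 2-fold or else up to 4 per list, and genes past 2-fold in opposite directions in sh#2 and sh#7; others illustrate a list and were picked after their values were seen. The members and the 40 lists (788 list symbols, 766 in the table) were chosen with earlier results of these data known. Promoters were read by symbol from RefSeq. Alternatives were pseudocounts, filters, scalings and a 1.5-fold threshold. Python 3.11.15 with pandas 2.3.3 and scipy 1.17.1 was used. The 2-fold calls were also run on simulated data with counting error alone, which cannot speak to the spread between cultures.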

Additional observations from a re-analysis of the deposited data

Results flagged for a closer look

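In 6 genes sh#2 and sh#7 lay past 2-fold on opposite sides of the shared control, each from 1 library a line, and the difference between the lines was not tested. ATP10D, a lipid-flipping ATPase, had values of 1.41 for sh#2 and -1.37 for sh#7 on the log2(FPKM + 1) scale, with 2.32 FPKM in control cells, 7.84 in sh#2 and 0.284 in sh#7. SLC6A14, an amino acid importer, had 1.13 and -2.11, and the microtubule-associated MAP7D2 1.27 and -1.12. On the other side, CPT1A differed by -1.21 in sh#2 and 1.02 in sh#7, and the cadherin gene CDH2 by -1.01 and 1.35. PTGR1, a reductase of prostaglandins and reactive aldehydes, differed by -1.12 and 1.51, with 29.5 FPKM in control cells, 12.99 in sh#2 and 86.0 in sh#7. The level of FTO was lower than the control in both lines, and lower in sh#7 than in sh#2. Whether the order of these 6 genes over the libraries is tied to FTO, the line or the hairpin was not tested.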

How the results depend on the processing

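No paired analysis was possible because a single library stood for each line, and for the same reason no library could be left out. The difference of FTO stayed within its counting interval under all the alternatives. A pseudocount of 0.1 gave 106 higher and 138 lower genes, a minimum mean of 5 FPKM gave 24 and 49 from fewer genes, and a threshold of 1.5-fold gave 295 and 301. The median difference of all genes was 0 with no filter, where genes listed at 0 in both libraries enter, and 0.000536 after median-of-ratios scaling, which is built to centre it. Of 36 summary values, the other 28 stayed within 1.5 times the reported count, within 0.1 of the reported median or within the interval of FTO, and among them the count of lower genes was 98 after upper-quartile and 105 after median-of-ratios scaling, and the median of all genes 0.025 after upper-quartile scaling. Leaving out genes listed at 0 in the control or sh#2, an alternative chosen after seeing the data, gave 53 and 78. Of 997 values of genes named by the rule, 134 lay outside their interval, or changed where they had none. None of those genes that were past 2-fold changed sign, and smaller differences were not checked for a change of sign. Limits are that the depth and transcript lengths are estimates, that low genes rest on few fragments, and that the spread between cultures is unknown.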

Other observations

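Several gene families outside the lists were looked up after the values were seen. Over all compared genes 0.723% were past 2-fold lower and 0.506% higher. Families picked by their values cannot be weighed against those shares. Of 5 compared troponin genes, which encode the calcium switch of striated muscle, 3 were past 2-fold lower in sh#2. TNNT1 was at 7.97 FPKM in control cells, 0.993 in sh#2 and 2.76 in sh#7, TNNC1 at 56.2, 26.1 and 22.4 FPKM, and TNNI3 at 5.49, 2.15 and 1.97 FPKM. TNNI2 was the most abundant, at 189 FPKM in control cells, 227 in sh#2 and 6.27 in sh#7. Of 12 compared imprinted genes, which are expressed from 1 parental copy, 3 were past 2-fold lower. PEG3, a zinc finger gene, was at 134, 66.3 and 105 FPKM, its neighbour MIMT1 at 5.07, 1.66 and 2.78 FPKM, and MEST at 3.07, 0.438 and 0.149 FPKM. MEST passed the filter only through its control level. DLK1, PEG10 and SNRPN lay within 0.27 of the control in sh#2. GRB10 had the largest value on the higher side, at 1.20, 2.86 and 4.98 FPKM, a difference of 0.81 in sh#2. Of 6 compared YAP-linked genes, 1 was past 2-fold lower and 1 higher. CTGF, a matrix-associated growth factor that YAP activates, was at 186, 84.5 and 57.4 FPKM, whereas ANKRD1, also a YAP target, was at 38.1, 60.5 and 88.1 FPKM. The higher gene was AMOT, at 0.645, 2.89 and 0.349 FPKM, which passed the filter only through its sh#2 level. Of the membrane proteins, CLDN4, a tight junction claudin, was at 35.2, 12.9 and 17.0 FPKM and the tetraspanin CD9 at 25.9, 9.37 and 11.5 FPKM. CLDN4 was the 1 gene past 2-fold of 4 compared claudins, with CLDN1, CLDN6 and CLDN12 at 0.14, 0.27 and -0.15. CD9 and TM4SF5 were the 2 past 2-fold of 5 compared tetraspanin and TM4SF genes, with CD63 at -0.05, CD151 at -0.37 and TM4SF1 at -0.71.

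Among the genes past 2-fold, 6 pairs were neighbours with no other compared gene between them, by RefSeq order, and each pair lay on the same side of the control. They were TNNT1 with TNNI3 and PEG3 with MIMT1 on chromosome 19, SEMA3G with TNNC1 on chromosome 3, RBM24 with CAP2 and GSTA2 with GSTA1 on chromosome 6, and IGFBP1 with IGFBP3 on chromosome 7. In all, 10787 compared genes were placed, and 1.23% of compared genes were past 2-fold. How many pairs would arise with no link between neighbours was not worked out, so the count is only described. How reads were divided between GSTA1 and GSTA2 is uncertain. Among reference genes, ACTB was at 1157 FPKM in control cells and 1523 in sh#2, B2M at 425 and 436 FPKM, and RPLP0 at 740.4 and 701 FPKM.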
